A study of Mus musculus with 6 samples.

Results

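The genes described here are 33 mouse genes whose products carry a cell through mitosis, taken by name from a deposited table of 31265 genes. All 33 were found, and all 33 had a mean of at least 1 FPKM (fragments per kilobase of a transcript, relative to library size), the filter applied to every gene. They were measured in E14Tg2a, a clonal mouse embryonic stem cell line labelled wild type that carries Grx1-roGFP2 in its nucleus, a fluorescent sensor whose excitation ratio follows the oxidation of glutathione. Cells had been kept with LIF and the 2i inhibitors, were moved to medium lacking both, and were grown as hanging-drop embryoid bodies until day 5. Living cells, unstained by propidium iodide, were then gated by sensor ratio. The 10% with the most oxidized and the 10% with the most reduced nuclei were collected from each of 3 populations, A, B and C, which gave 3 oxidized and 3 reduced libraries. All 6 share the line, the sensor, the medium and the day, and the labels call the cells embryonic stem cells although they came from embryoid bodies. Whether the populations were separate clones, cultures or days is not said in the labels.

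Entry into mitosis is driven by the kinase CDK1 with its cyclin partners. Aurora and Polo kinases then build the spindle, kinetochores tie the chromosomes to it, and the spindle checkpoint restrains the anaphase-promoting complex until every chromosome is attached. Many of these mRNAs accumulate in G2 and decline after division. In bulk RNA, fewer dividing cells and less mRNA per dividing cell cannot be told apart.

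The promoters of the genes are shown first, since they share a feature that the choice of the genes did not use. The RefSeq table of promoter windows (build GRCm38.p6, 250 bases before to 50 bases after a transcript start) held 30 windows for 27 of the 33 genes, with no entry for Incenp, Kif20a, Tpx2, Cdc25c, Ccna2 and Aurkb. Each was searched on both strands for CCAAT, the box bound by the factor NF-Y, and for TTTGAA, the core of the cell cycle genes homology region that LIN54 contacts in the DREAM and MuvB complexes. Matches to one motif overlapped matches to the other in 0 of the 30 windows. CCAAT occurred in 23 of them (76.7%), against 37.4% of all 32851 windows in the table and 39.0% of the 11045 windows of genes tested here. TTTGAA also occurred in 23 (76.7%), against 17.9% and 11.7%. Both were present in 20 windows (66.7%, against 6.95% and 5.00%) and neither in 4, those of Nusap1, Nuf2, Mad2l1 and Birc5. The 11045 windows covered 8696 of the 12191 genes tested here, so the shares leave out tested genes without an entry. A match describes the letters and is not evidence that a factor binds there.

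Printed here are the windows of Aurka (chr2:172370521-172370820, minus strand), Top2a (chr11:99024140-99024439, minus strand), Ccnb1 (chr13:100786437-100786736, minus strand) and Anln (chr9:22389157-22389456, minus strand), because the oxidized and reduced libraries of these genes did not overlap. Plk1 (chr7:122159185-122159484, plus strand) is added as a gene whose libraries did overlap. The sequences run 5′ to 3′ on the strand of the gene, and capitals mark both motifs on either strand.
Aurka: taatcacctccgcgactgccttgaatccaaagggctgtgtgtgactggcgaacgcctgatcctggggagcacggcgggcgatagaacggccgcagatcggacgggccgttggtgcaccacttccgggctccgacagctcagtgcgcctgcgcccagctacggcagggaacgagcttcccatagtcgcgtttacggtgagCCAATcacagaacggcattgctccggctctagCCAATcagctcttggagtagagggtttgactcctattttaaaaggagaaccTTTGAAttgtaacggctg
Top2a: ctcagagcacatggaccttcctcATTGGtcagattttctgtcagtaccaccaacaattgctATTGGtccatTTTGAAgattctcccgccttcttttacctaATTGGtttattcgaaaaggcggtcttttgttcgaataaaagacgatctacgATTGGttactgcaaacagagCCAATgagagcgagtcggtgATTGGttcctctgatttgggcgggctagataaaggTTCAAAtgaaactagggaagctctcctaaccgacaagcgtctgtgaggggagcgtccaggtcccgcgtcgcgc
Ccnb1: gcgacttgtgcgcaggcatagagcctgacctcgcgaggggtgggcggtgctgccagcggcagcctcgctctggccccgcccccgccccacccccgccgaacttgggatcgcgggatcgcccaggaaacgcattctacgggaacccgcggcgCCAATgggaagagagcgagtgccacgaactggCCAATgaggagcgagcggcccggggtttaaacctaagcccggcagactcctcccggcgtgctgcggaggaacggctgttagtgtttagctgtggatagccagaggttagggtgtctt
Anln: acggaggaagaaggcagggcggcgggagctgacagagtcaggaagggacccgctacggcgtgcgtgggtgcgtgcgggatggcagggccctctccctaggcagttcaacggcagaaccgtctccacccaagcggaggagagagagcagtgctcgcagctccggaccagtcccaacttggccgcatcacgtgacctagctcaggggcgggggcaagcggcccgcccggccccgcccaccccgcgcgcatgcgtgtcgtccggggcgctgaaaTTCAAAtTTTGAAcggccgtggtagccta
Plk1: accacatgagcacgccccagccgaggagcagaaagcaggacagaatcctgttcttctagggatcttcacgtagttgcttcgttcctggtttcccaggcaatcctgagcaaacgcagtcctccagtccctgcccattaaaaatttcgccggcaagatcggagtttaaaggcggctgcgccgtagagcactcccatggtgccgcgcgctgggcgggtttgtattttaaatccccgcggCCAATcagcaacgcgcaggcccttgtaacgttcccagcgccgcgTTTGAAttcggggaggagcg
Aurka had 2 CCAAT matches before the start and 1 TTTGAA match after it, and Plk1 had 1 of each in the same order. Ccnb1 had 2 CCAAT matches and no TTTGAA, Anln 2 TTTGAA matches and no CCAAT, and Top2a 6 CCAAT and 2 TTTGAA matches.

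**Figure D1:**
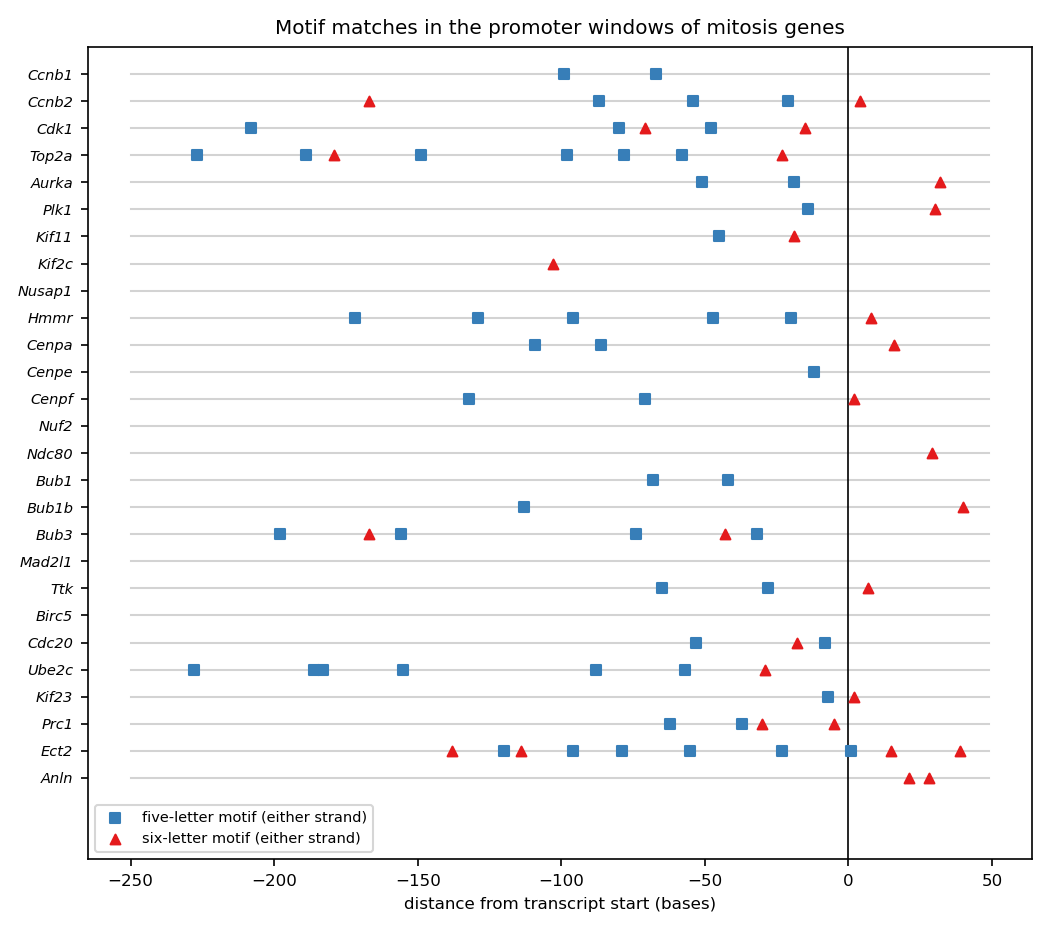
Position of each motif match (x axis, bases from the transcript start) in the promoter windows of the 27 mitosis genes with an entry (y axis). Squares are the five-letter motif CCAAT and triangles the six-letter motif TTTGAA, grey lines are the windows, and Bub3, Prc1 and Ect2 have 2 windows drawn on 1 line. Of 54 CCAAT matches, counted in each window, 1 lies at or after the start, against 14 of 29 TTTGAA matches.

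The libraries differed in ways that touch these genes. Relative depth, read from the steps between low FPKM values, was lowest in oxidized C (65.9% of the deepest library) and reduced C (70.0%) and 85.1% to 100% in the others. Over all tested genes, oxidized C had r = 0.969 with reduced C, 0.955 with oxidized A and 0.948 with oxidized B, a description across genes. Summed markers of several other cell types did not overlap between the gates. Fibroblast markers (7 genes, 6 tested, all 6 with positive differences, 2 called) summed to 118 to 157 FPKM in oxidized against 55.9 to 79.0 in reduced libraries. Visceral endoderm markers (8 genes, 7 tested, all 7 positive, none called) summed to 36.4 to 47.0 against 15.7 to 22.9. Cardiac markers (6 genes, 4 tested, 3 positive, none called) summed to 15.6 to 19.5 against 8.81 to 12.2. The sum of primitive streak and mesoderm markers was also higher, at 150.3 to 213 against 101 to 134, although of these 7 genes only 3 had positive differences (1 called) and 4 had negative ones. Pluripotency markers (8 genes, 7 tested, 6 with negative differences, none called) summed to 276 to 416 against 462 to 596, and the 6 neuroectoderm and 5 endothelial markers overlapped. Afp and Neurog2 were listed at 0 in at least 1 library, and Afp, Neurog2, Thy1, Tnnt2, Myh6, Pax6 and Emcn were under 1 FPKM in every library. The 6 erythroid markers marked population C in both gates, at 620.5 FPKM in oxidized and 634 in reduced C against 30.3 to 82.6 elsewhere. The part of depth and of these cell types in the values below was not tested.

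No mitosis gene passed the test between oxidized and reduced cells. With limma on log2(FPKM + 1), two-sided, with Benjamini-Hochberg adjustment over 12191 genes, 0 of 33 were called at an adjusted p under 0.05, against 0.796% of all tested genes. The smallest adjusted p was 0.166, for Aurka. At an unadjusted p under 0.05 there were 2 of the 33, Aurka and Anln (6.06%), against 19.4% of all tested genes. The authors' deposited table marked 0 of the 33 as significant, against 1.94% of all its 31265 genes. That share includes genes under the filter of 1 FPKM, unlike the limma shares. The deposited p-value was under 0.05 for 6 of the 33, all lower in oxidized cells. The share of all genes under that p-value, and their direction, were not computed here. Whether this count differs from that of other genes is therefore not known. The smallest deposited q-value was 0.0542, for Aurka. Log2 differences fitted by limma, oxidized minus reduced, were below 0 for 24 of the 33 genes, against 40.7% of tested genes. Their median was -0.13 where that of all tested genes was 0.077. The deposited log2 ratios of mean FPKM were below 0 for 22 of the 33, a count whose share over all genes was not computed. With median-ratio scaling, which put the median of all genes at -0.00055, 28 of the 33 were below 0 and 0 were called, against 0.886% of all genes. The standard errors of these differences ran from 0.15 to 0.28.

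**Figure D2:**
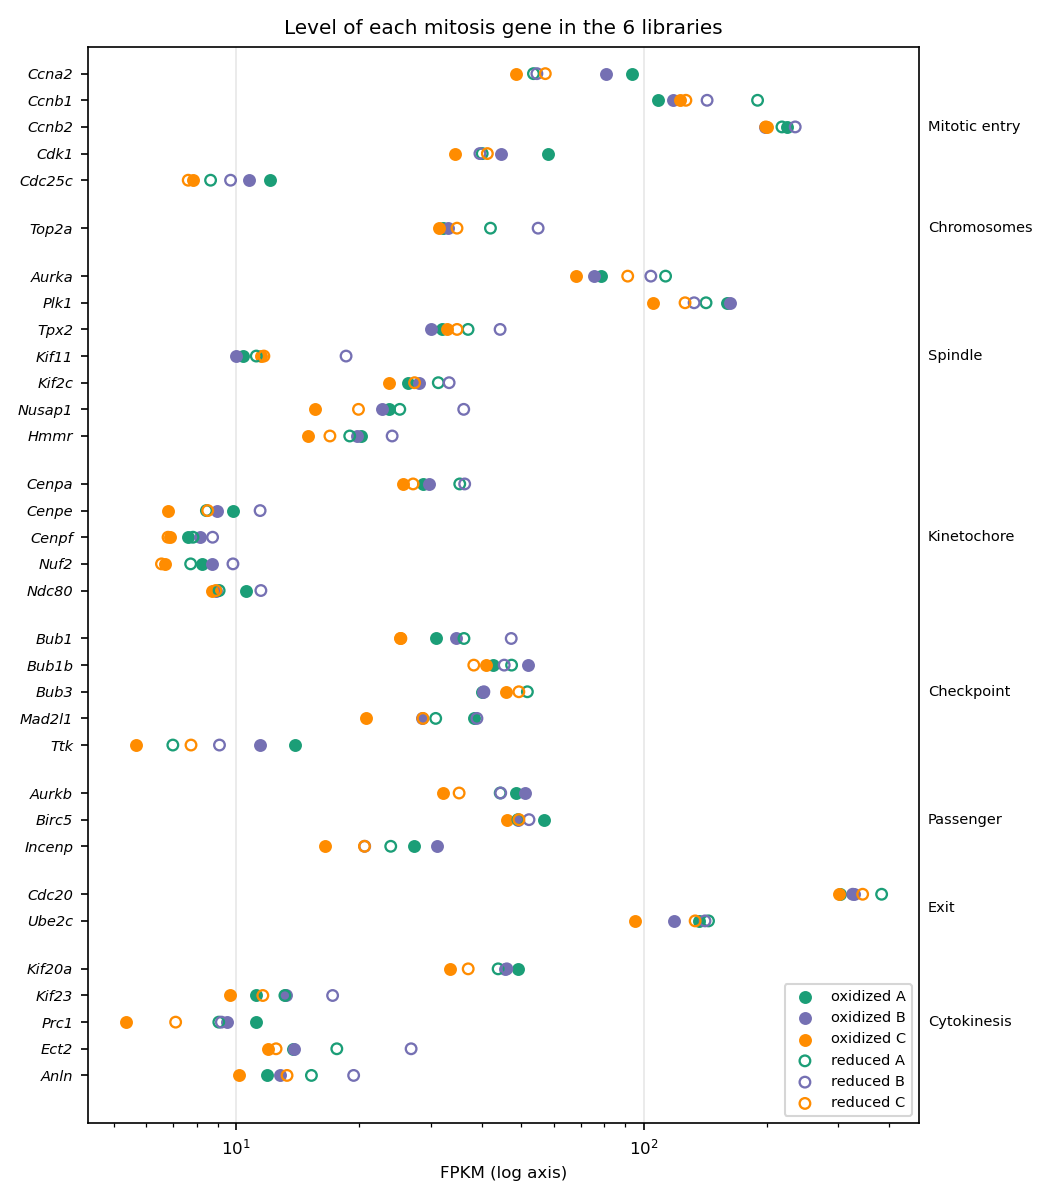
FPKM (x axis, log scale) of the 33 mitosis genes (y axis, grouped by role) in each library. Filled circles are oxidized and open circles reduced libraries, coloured by population. Oxidized C is the lowest of the 6 libraries for 24 genes, and the groups do not overlap for Aurka, Top2a, Ccnb1, Tpx2 and Anln.

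Populations differed in how the genes behaved. Their mean log2(FPKM + 1) was 5.06, 5.02 and 4.71 in oxidized A, B and C and 5.06, 5.20 and 4.88 in reduced A, B and C. Both libraries of population C were thus the lowest. Reduced C lay below reduced A and B for 25 of the 33 genes, against 33% of tested genes. Oxidized C lay below oxidized A and B for 28, against 47.1%, and was the lowest of all 6 libraries for 24, against 21.1%. Within a population, the oxidized library was below the reduced one for 17 genes in A, 23 in B and 28 in C, against 41.8%, 39.6% and 49.9% of tested genes. The median log2 difference was -0.034 in A, -0.24 in B and -0.15 in C, where all tested genes had 0.085, 0.14 and 0.00025. With 1 library of each kind in a population, these within-population values have no test. A negative difference in all 3 populations was seen for 14 genes (42.4%, against 16.4% of tested genes), and a positive one in all 3 for Cdc25c alone (3.03%, against 26.9%).

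**Figure D3:**
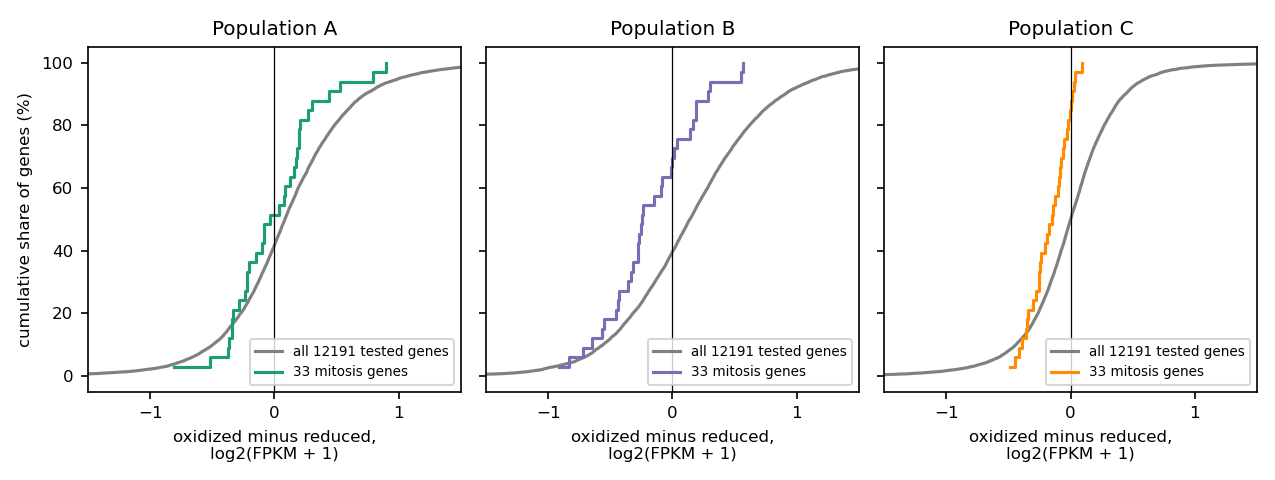
Cumulative share of genes (y axis, %) by oxidized minus reduced log2(FPKM + 1) (x axis) in each population, for the mitosis genes (coloured steps) and all tested genes (grey). The median of the mitosis genes lies at -0.034 in A, -0.24 in B and -0.15 in C, and in C 28 of the 33 lie below 0.

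The oxidized libraries lay below all reduced ones without overlap for 5 genes, Ccnb1, Top2a, Aurka, Tpx2 and Anln (15.2%, against 8.81% of tested genes), and above all of them for 0 of the 33 (against 16.2%). In the following, each set of 3 values is in the order A, B, C.

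Among the genes of mitotic entry, 3 of 5 differences were above 0. Ccnb1, the cyclin that activates CDK1 at the onset of mitosis (chr13:100778650-100786570), measured 108, 118 and 122 FPKM in oxidized against 190.0, 143 and 127 in reduced cells, or 116 ± 7.36 against 153 ± 32.9 FPKM (mean ± SD, n = 3 each). Every oxidized library was below every reduced one, with reduced A far above the rest and the libraries of C close together. The log2 difference was -0.38 (SE 0.186, limma adjusted p = 0.304), or -0.21 without reduced A. Of the stretches of 50 bases in Ccnb1 transcripts, 23.4% also occur in other genes, foremost the pseudogene Ccnb1-ps, so that fragments could be split between them. Ccnb1-ps measured 5.78, 5.26 and 4.46 FPKM oxidized and 8.38, 6.27 and 6.93 reduced, also without overlap, with a difference of -0.41 (SE 0.171, limma adjusted p = 0.241). Ccnb2, the second B-type cyclin and the most abundant entry gene (chr9:70407692-70421547), measured 224, 198 and 200.0 FPKM in oxidized against 218, 235 and 199 in reduced cells. Its groups overlapped, at -0.065 (SE 0.156, limma adjusted p = 0.841).

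Ccna2, the cyclin of S phase and G2 (chr3:36564865-36572150), measured 93.4, 80.7 and 48.5 FPKM in oxidized against 53.6, 54.6 and 57.3 in reduced cells, or 74.2 ± 23.1 against 55.2 ± 1.91 FPKM (mean ± SD, n = 3 each). Oxidized A and B lay above every reduced library and oxidized C below every one. The log2 difference was 0.37 (SE 0.236, limma adjusted p = 0.414) over all libraries. Without oxidized C it was 0.65 (SE 0.17, adjusted p = 0.0426), in a fit that called 9.87% of all tested genes, and without oxidized A and B -0.18 (adjusted p = 0.758). Exosc9, on the other strand, covers 12.5% of the exon bases of Ccna2 and had a mean of 11.4 FPKM. Cdk1, the kinase itself (chr10:69335146-69352938), measured 58.3, 44.5 and 34.5 FPKM oxidized and 40.1, 39.6 and 41.3 reduced, in the same arrangement, at 0.15 (SE 0.199, limma adjusted p = 0.712). Cdc25c, the phosphatase that activates CDK1, measured 12.1, 10.7 and 7.81 FPKM oxidized and 8.65, 9.68 and 7.62 reduced. It was the 1 gene with a positive difference in every population, 0.44, 0.14 and 0.032, and its groups overlapped through oxidized C (0.20 (SE 0.191, limma adjusted p = 0.577)).

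Top2a, which untangles sister DNA molecules (chr11:98992943-99024189), measured 32.1, 33.0 and 31.4 FPKM in oxidized against 42.0, 55.0 and 34.8 in reduced cells, or 32.2 ± 0.825 against 43.9 ± 10.2 FPKM (mean ± SD, n = 3 each). The oxidized libraries lay close together below a spread of reduced ones, of which B was highest. The log2 difference was -0.41 (SE 0.186, limma adjusted p = 0.267), or -0.24 without reduced B.

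Of the 7 spindle genes, 6 had differences below 0, with a median of -0.28. Aurka, the kinase of centrosomes and spindle poles (chr2:172356190-172370535), measured 78.4, 75.4 and 68.1 FPKM in oxidized against 113, 104 and 91.2 in reduced cells, or 74.0 ± 5.29 against 103 ± 10.9 FPKM (mean ± SD, n = 3 each). The groups did not overlap, and the differences within A, B and C were close to each other, at -0.52, -0.46 and -0.42. The fitted difference was -0.46 (SE 0.156, limma adjusted p = 0.166). Tpx2, whose product activates AURKA on the spindle (chr2:152847964-152895321), measured 31.9, 30.0 and 32.8 FPKM oxidized and 37.0, 44.4 and 34.8 reduced, without overlap and with oxidized C nearest to the reduced libraries (-0.28 (SE 0.154, limma adjusted p = 0.347)). Plk1, the Polo-like kinase of centrosomes and kinetochores and the most abundant spindle gene (chr7:122159439-122169873), measured 160.0, 162 and 105 FPKM in oxidized against 142, 133 and 126 in reduced cells. Here oxidized A and B lay above and oxidized C below all reduced libraries, at 0.068 (SE 0.199, limma adjusted p = 0.873), or -0.025 with median-ratio scaling.

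The motor gene Kif11, which pushes spindle poles apart, measured 10.4, 9.98 and 11.5 FPKM oxidized and 11.2, 18.6 and 11.7 reduced. All of its libraries but reduced B lay within a narrow range (-0.32 (SE 0.206, limma adjusted p = 0.420), or -0.10 without reduced B). Nusap1, which bundles spindle microtubules, differed by -0.36, Kif2c, a kinesin that depolymerizes microtubules, by -0.23, and Hmmr, a spindle protein also known as a hyaluronan receptor, by -0.12, with adjusted p-values of 0.446, 0.442 and 0.749.

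All 5 kinetochore genes had differences below 0, from -0.22 to -0.016. Cenpa, the histone H3 variant that marks centromeres (chr5:30666777-30674830), was the most abundant of them and stood at the lower end of that range. It measured 28.7, 29.8 and 25.6 FPKM in oxidized against 35.3, 36.3 and 27.1 in reduced cells, and the groups overlapped because reduced C was low (-0.22 (SE 0.167, limma adjusted p = 0.497)). The centromere kinesin gene Cenpe (-0.13), Cenpf (-0.037) and the microtubule-binding NDC80 complex genes Ndc80 (-0.057) and Nuf2 (-0.016) had adjusted p-values from 0.727 to 0.971.

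Of the 5 checkpoint genes, 3 had differences below 0. Bub3, which docks checkpoint proteins at kinetochores and was the most abundant of them (chr7:131560222-131571895), measured 40.0, 40.4 and 45.8 FPKM in oxidized against 51.8, 40.5 and 49.3 in reduced cells, with overlap (-0.16 (SE 0.159, limma adjusted p = 0.610)). Ttk, the kinase that starts the checkpoint signal (chr9:83834689-83872389), measured 13.9, 11.4 and 5.66 FPKM in oxidized against 6.99, 9.09 and 7.74 in reduced cells. Oxidized A was the highest and oxidized C the lowest of its 6 libraries. The log2 difference of Ttk was 0.27 (SE 0.284, limma adjusted p = 0.625), 0.61 without oxidized C (adjusted p = 0.0711) and -0.42 without oxidized A and B (adjusted p = 0.481). Bub1b, which encodes the checkpoint protein BUBR1 (chr2:118598211-118641591), measured 42.7, 51.8 and 40.9 FPKM oxidized and 47.3, 45.4 and 38.2 reduced, with overlap. Its difference within population C, 0.095, was the highest of the 33 genes there, and the fitted value was 0.045 (SE 0.165, limma adjusted p = 0.902), or -0.047 with median-ratio scaling. The checkpoint kinase gene Bub1 differed by -0.22 and Mad2l1, whose product holds back CDC20, by -0.19 (adjusted p-values of 0.625 and 0.674). The value of Bub1 was -0.015 without reduced B and -0.45 without reduced C.

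The chromosomal passenger complex corrects wrong attachments and later moves to the division plane, and its 3 genes had differences of 0.0098 to 0.15. Birc5, which encodes survivin and was the most abundant (chr11:117849251-117855743), measured 56.9, 49.1 and 46.2 FPKM in oxidized against 49.1, 52.2 and 49.3 in reduced cells, with overlap (0.0098 (SE 0.150, limma adjusted p = 0.978), or -0.082 with median-ratio scaling). Incenp, the scaffold (chr19:9872296-9899551), measured 27.3, 31.1 and 16.5 FPKM oxidized and 23.9, 20.6 and 20.6 reduced, and Aurkb, the kinase of the complex (chr11:69045647-69051664), 48.5, 51.0 and 32.2 FPKM oxidized and 44.4, 44.5 and 35.2 reduced. For both, oxidized A and B lay above and oxidized C below all reduced libraries. The fitted differences were 0.15 (SE 0.230, limma adjusted p = 0.748) for Incenp and 0.064 (SE 0.208, limma adjusted p = 0.886) for Aurkb, which with median-ratio scaling was -0.028.

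Mitotic exit was represented by 2 abundant genes. Cdc20, which activates the anaphase-promoting complex (chr4:118432901-118437352), had the highest mean of all 33 genes, 331 FPKM. It measured 302, 328 and 301 FPKM in oxidized against 383, 325 and 344 in reduced cells, and the groups overlapped through population B alone (-0.17 (SE 0.158, limma adjusted p = 0.568)). Ube2c, the ubiquitin-conjugating enzyme of that complex (chr2:164769898-164778822), measured 136, 118 and 95.0 FPKM in oxidized against 144, 141 and 134 in reduced cells. Of the oxidized libraries only A reached the reduced range. Its difference within population C, -0.49, was the lowest of the 33 genes there, and the fitted value was -0.27 (SE 0.175, limma adjusted p = 0.415). Tnnc2, on the other strand, covers 22.8% of the exon bases of Ube2c and had a mean of 0.205 FPKM.

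All 5 genes of cytokinesis had fitted differences below 0 and their lowest library was oxidized C. For Kif20a and Prc1 the fitted values were near 0. Their mean FPKM was slightly higher in oxidized than in reduced cells, at 42.7 against 42.3 for Kif20a and 8.65 against 8.45 for Prc1. Ect2, which activates RhoA at the cleavage furrow (chr3:27097222-27153878), measured 13.8, 13.8 and 11.9 FPKM in oxidized against 17.6, 26.8 and 12.5 in reduced cells. Reduced B stood highest, and reduced C lay below oxidized A and B (-0.44 (SE 0.250, limma adjusted p = 0.363)). The difference was -0.17 without reduced B and -0.69 without reduced C. Anln, the anillin scaffold of the contractile ring (chr9:22332012-22389188), measured 11.9, 12.8 and 10.1 FPKM in oxidized against 15.3, 19.4 and 13.3 in reduced cells, or 11.6 ± 1.35 against 16.0 ± 3.10 FPKM (mean ± SD, n = 3 each). Its groups did not overlap, and it differed by -0.34, -0.57 and -0.36 within A, B and C (-0.42 (SE 0.181, limma adjusted p = 0.248) when fitted). Kif20a, a motor of the central spindle and the most abundant of the group, measured 49.0, 45.6 and 33.3 FPKM oxidized and 43.9, 46.1 and 37.1 reduced, with overlap (-0.0022 (SE 0.188, limma adjusted p = 0.996)). Cdc23, on the other strand, covers 29.3% of the exon bases of Kif20a and had a mean of 18.8 FPKM. Prc1, which bundles the central spindle (chr7:80294450-80316259), measured 11.2, 9.46 and 5.35 FPKM oxidized and 9.06, 9.19 and 7.10 reduced, with oxidized A and B above and oxidized C below the reduced range (-0.014 (SE 0.249, limma adjusted p = 0.982)). Kif23, a motor of the centralspindlin complex, differed by -0.27 (adjusted p = 0.455).

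**Figure D4:**
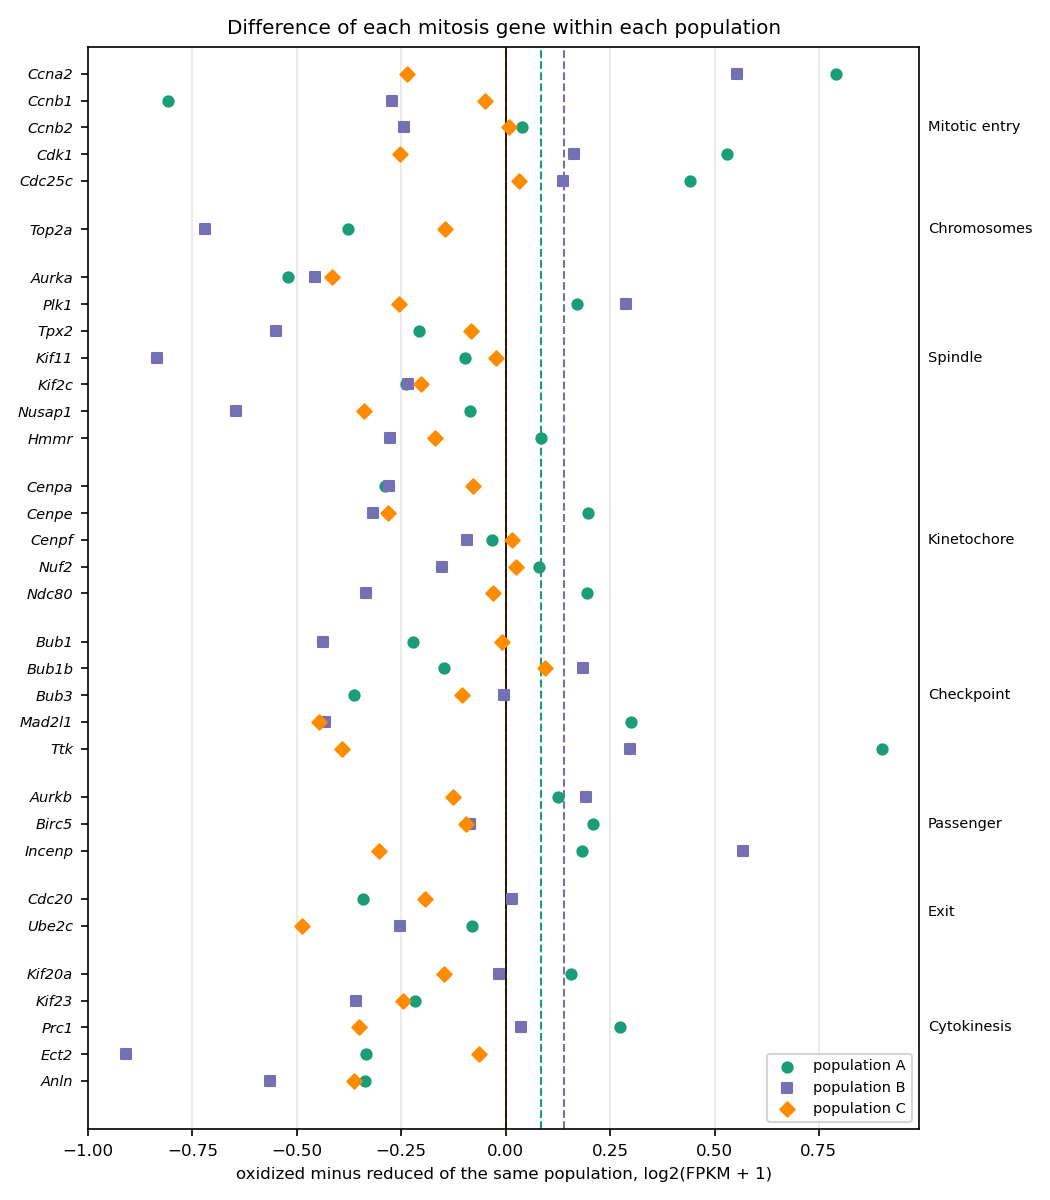
Oxidized minus reduced log2(FPKM + 1) of each mitosis gene (x axis) within population A (circles), B (squares) and C (diamonds), by role (y axis). Dashed lines mark the median of all tested genes in each population. Aurka is at -0.52, -0.46 and -0.42 in A, B and C, and Ccna2 at 0.79, 0.55 and -0.24.

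The arrangement seen for Ccna2 recurred in 7 of the 33 genes, Ccna2, Cdk1, Plk1, Ttk, Aurkb, Incenp and Prc1 (21.2%, against 4.11% of all tested genes). In each, oxidized A and B were above all reduced libraries and oxidized C was below them. The arrangement was defined after the values were seen. It includes the kinase genes Cdk1, Plk1, Ttk and Aurkb, but not the kinase genes Aurka and Bub1, nor Bub1b. Aurka was lower in every oxidized library, and Bub1 differed by -0.22, -0.44 and -0.0084 within A, B and C. For oxidized A and B alone, 8 of the 33 genes lay above all reduced libraries (24.2%), near the 30% of tested genes that did.

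The fitted values depended on which libraries were used. For 30 of the 33 genes, leaving out at least 1 library changed the sign of the log2 difference or its size by over 1.5 times, and the exceptions were Aurka, Kif2c and Anln. Oxidized C did so for 22 genes, reduced B for 21, oxidized A for 17, reduced C for 16, and oxidized B and reduced A for 12 each. Differences near 0 meet this rule with small shifts, as with Kif20a (-0.0022) and Birc5 (0.0098), which leaving out any 1 library moved. The share of all tested genes that meet it was not computed. Without oxidized C, 17 of the 33 differences were below 0, with a median of -0.010, where that of all tested genes was 0.10. Ccna2 was the 1 member called in that fit, against 9.87% of all tested genes. Without reduced B, 18 were below 0 and the median was -0.0078, where that of all tested genes was 0.079. The share of all tested genes below 0 was not computed without oxidized C or without reduced B. Without oxidized A and B, an alternative added after the data were seen, 1 oxidized library is assumed to vary as the reduced ones do. That fit sets oxidized C against reduced A, B and C, so it mixes the gate with population C. Reduced C itself lay below reduced A and B for 25 of the 33 genes. All 33 differences were then below 0, with a median of -0.34, and 0 were called, against 0.0911% of all tested genes, with the smallest adjusted p at 0.336 for Ube2c. The median of all tested genes was 0.0084 without oxidized A and B, and their share below 0 was not computed. Paired within population C, 28 of the 33 were below 0, with a median of -0.15. Aurka was at -0.41 without oxidized C and -0.58 without oxidized A and B. With the population as a block 0 of the 33 were called, against 0.0328% of tested genes, and with the block on populations A and B alone 0, against 13.8%. The p-values of the fit on A and B alone rest mainly on spread pooled over genes.

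**Figure D5:**
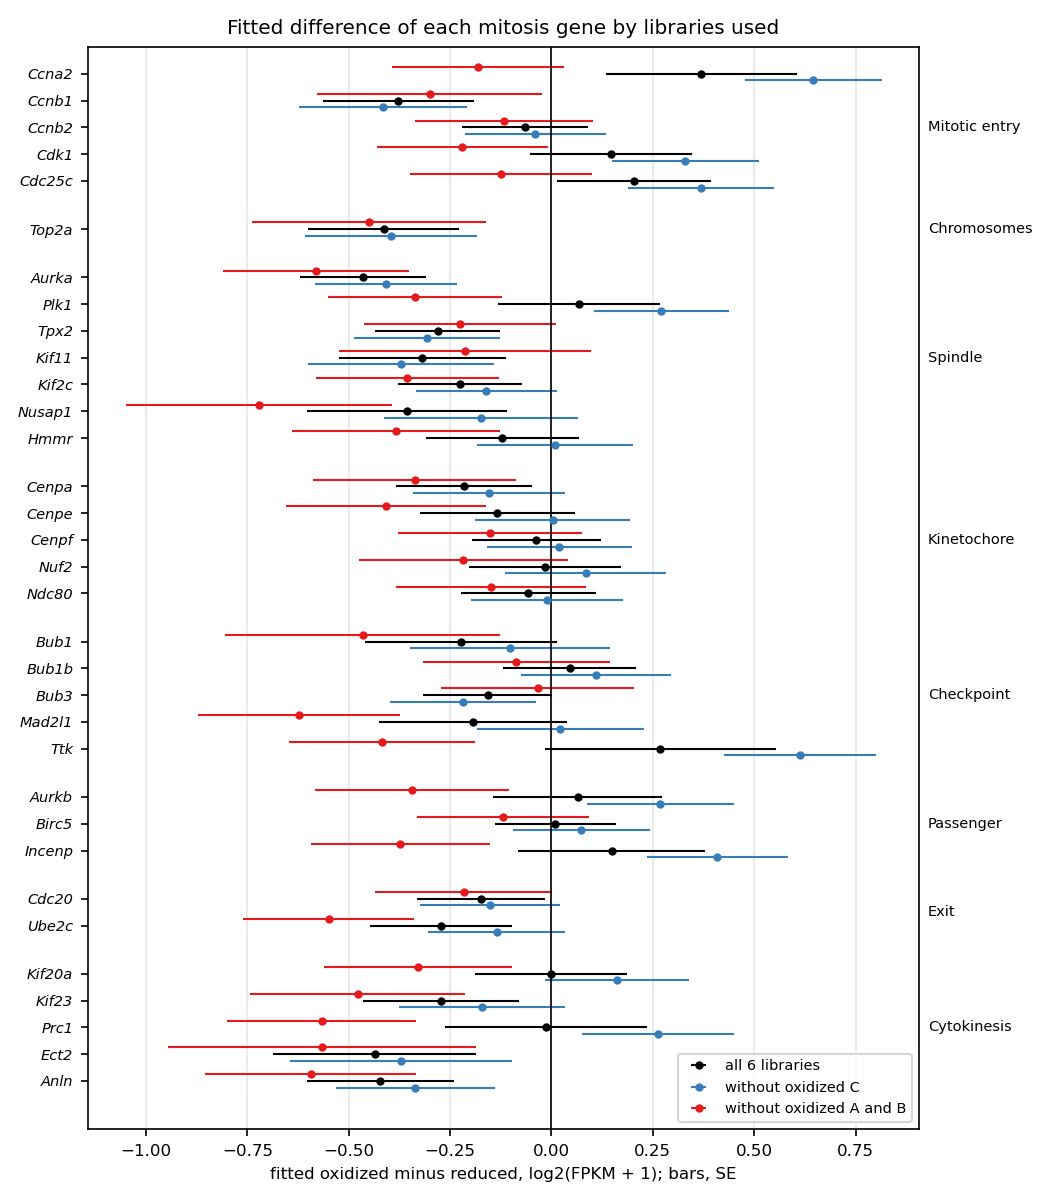
Fitted log2 difference of each mitosis gene (x axis, bars are SE) from all 6 libraries, without oxidized C and without oxidized A and B, by role (y axis). Aurka lies between -0.58 and -0.41, while Ccna2 runs from -0.18 to 0.65.

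Of 102 other mitotic genes, all 102 were tested and limma called 0, against 0.796% of all tested genes, with 11 at an unadjusted p under 0.05 (10.8%, against 19.4%). Their differences were below 0 for 59 (57.8%, against 40.7%), with a median of -0.058, and within A, B and C the medians were 0.053, -0.090 and -0.14. In C, 77 of the 102 were below 0. The gene with the largest difference in each of their 7 roles had a negative value that did not pass. Fbxo5, which encodes the inhibitor EMI1 of the anaphase-promoting complex, measured 57.4, 44.8 and 40.6 FPKM oxidized and 71.3, 85.8 and 63.8 reduced, without overlap (-0.62 (SE 0.188, limma adjusted p = 0.142)). Ncapd3, a condensin II subunit, measured 5.19, 6.69 and 9.86 FPKM oxidized and 14.5, 12.8 and 10.5 reduced, without overlap and with oxidized C nearest to the reduced libraries (-0.75 (SE 0.229, limma adjusted p = 0.144)). Spc25, a partner of Ndc80 and Nuf2, measured 44.2, 27.5 and 34.4 FPKM oxidized and 50.8, 62.6 and 47.0 reduced, without overlap (-0.60 (SE 0.206, limma adjusted p = 0.173)). Kif20b, a motor of cytokinesis, measured 10.1, 8.32 and 8.08 FPKM oxidized and 12.9, 16.6 and 11.7 reduced, without overlap (-0.58 (SE 0.178, limma adjusted p = 0.145)).

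Mastl, the Greatwall kinase that restrains the phosphatase opposing CDK1, measured 4.14, 4.72 and 4.41 FPKM oxidized and 6.73, 9.19 and 5.48 reduced, also without overlap (-0.56 (SE 0.195, limma adjusted p = 0.175)). Cep55, which recruits the abscission machinery to the midbody, measured 6.58, 6.23 and 5.01 FPKM oxidized and 6.92, 16.0 and 7.16 reduced, without overlap and with reduced B far above the rest (-0.58 (SE 0.290, limma adjusted p = 0.309)). Lin52, a MuvB subunit, measured 3.72, 4.29 and 3.36 FPKM oxidized and 4.95, 5.73 and 3.95 reduced, with overlap (-0.29 (SE 0.177, limma adjusted p = 0.396)). Without oxidized C, 5 of the 102 were called (4.90%), a smaller share than the 9.87% of all tested genes called in that fit. The CDK-binding gene Cks2 (0.70) and the centromere gene Cenpn (0.78) were higher in oxidized cells in it, and Ncapd3 (-0.97), the separase gene Espl1 (-0.86) and the cytokinesis kinase gene Cit (-0.74) were lower. The proliferation marker Mki67 measured 10.3, 11.3 and 10.2 FPKM oxidized and 8.42, 11.0 and 10.4 reduced (0.089 (SE 0.159, limma adjusted p = 0.784)), and Foxm1, a transcription factor of G2 genes, 8.01, 13.3 and 9.03 FPKM oxidized and 8.29, 8.36 and 8.43 reduced (0.22 (SE 0.195, limma adjusted p = 0.559)), both with overlap.

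Genes of G1 and S and genes that brake the cycle had medians above 0, as did all tested genes (0.077). Of 31 genes of G1 and S, 30 were tested, 21 had differences above 0 (70%, against 59.3% of all tested genes) and the median was 0.12, while within population C it was 0.0038. Ccnd2, a D-type cyclin that drives G1, was the 1 called (3.33%, against 0.796%). It measured 22.6, 24.8 and 10.7 FPKM in oxidized against 4.75, 5.01 and 6.06 in reduced cells, without overlap, a difference of 1.62 (SE 0.288, limma adjusted p = 0.0481). The call was lost with the population as a block (adjusted p = 0.0902) and on leaving out any 1 library but oxidized C, with adjusted p-values of 0.165 without oxidized A, 0.167 without oxidized B, and 0.207, 0.217 and 0.0652 without reduced A, B and C. The replication licensing gene Cdt1 measured 44.9, 53.4 and 16.2 FPKM oxidized and 14.1, 11.2 and 12.8 reduced, without overlap (1.36 (SE 0.381, limma adjusted p = 0.126)). Of 18 brakes, 16 were tested and limma called 0, against 0.796% of all tested genes. At an unadjusted p under 0.05 there was 1 (6.25%, against 19.4%). Differences were above 0 for 11 (68.8%, against 59.3%), with a median of 0.22. Btg2, an antiproliferative gene, measured 28.6, 31.0 and 14.3 FPKM oxidized and 10.1, 10.5 and 13.3 reduced, without overlap (1.00 (SE 0.278, limma adjusted p = 0.124)), and the stress-induced gene Gadd45a 13.9, 19.5 and 8.97 FPKM oxidized and 6.88, 10.7 and 9.00 reduced, with overlap (0.57 (SE 0.272, limma adjusted p = 0.288)). For Ccnd2, Cdt1, Btg2 and Gadd45a oxidized C was the lowest oxidized library, as it was for 28 of the 33 mitosis genes. Without oxidized C, 3 genes of G1 and S (Ccnd2, Mcm3 and Cdt1) and 3 brakes (Btg2, Gadd45a and Gadd45b) were called, all higher in oxidized cells. These are 10% of the G1 and S genes and 18.8% of the brakes tested, against 9.87% of all tested genes in that fit.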

How the data were processed

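Libraries of poly(A) RNA from a stranded kit were read from both ends, per the labels' protocols. The authors deposited 1 table of FPKM values, with 1 column per library, per the file headers. Its columns carry population letters and the sample titles carry numbers, so columns were assigned to groups only. Tools listed in the submitters' processing notes are HISAT2, StringTie, edgeR, cutadapt and FastQC, with build mm10. Handling of multiply mapping fragments and of strand: not given in the sources used here. From the values, the deposited ratio (fold) column is that of the group means of FPKM, and the deposited log2 column is its log2. Which test gave the deposited p-value and q-value columns is not in the headers.

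Log2(FPKM + 1) was fitted by group with limma 3.58.1 (R 4.3.3; eBayes with trend) for 12191 genes whose mean reached 1 FPKM, after the code was tested on simulated data. Calls are adjusted p-values under 0.05. Differences on this scale understate changes of low genes, and p-values measure spread among the populations, which may be technical. The block on populations A and B alone leaves few libraries to estimate a gene's own spread. The p-values and calls of that fit rest mainly on the spread that eBayes pools over genes. Between 32.5% and 35.1% of low values fell within 2% of whole steps, too few to recover reads, so only relative depth is known. Positions, overlaps and shared stretches of 50 bases come from GENCODE vM21 (GRCm38, the assembly also called mm10). Overlap or sharing exceeded 5% for 8 of the 33 members (Ccna2, Ccnb1, Cdc25c, Plk1, Cdc20, Ube2c, Kif20a and Prc1) and, among the other mitotic genes named, for Fbxo5 (8.71% shared) and Cks2 (29.7%). The remaining lists were not checked for it.

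The members and lists were chosen with earlier results of these data known. Values by library are given, in each role, for the most abundant gene and the one with the largest difference, for the ends of the range in population C, for the leading gene in each role of the other mitotic genes, and for the leading 2 of the G1 and S genes and of the brakes. Chosen after their values were seen were Ccna2, Cdk1, Cdc25c, Tpx2, Kif11, Aurkb, Anln, Prc1, Ccnb1-ps, Cks2, Cenpn, Espl1, Cit, Mcm3, Gadd45b, Mki67 and Foxm1. Population letters pair the libraries, because the design text has both gates taken from each population. The main fit did not use this pairing, so its standard errors and p-values treat the libraries as independent. The population block is the alternative that uses it. Deviations from group means had r of -0.056 in A, 0.070 in B and 0.20 in C, and of 0.13 between oxidized A and reduced B and 0.12 between oxidized B and reduced A, so the pairing rests on the design text and not on these values. Alternatives were 2 scalings, no trend, a pseudocount of 0.1, no filter, a filter at 5 FPKM, a 2-fold minimum, the population block, leaving out each library and 2 added later.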

Additional observations from a re-analysis of the deposited data

How the results depend on the processing

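Every change of scaling, trend, pseudocount, filter or minimum fold, the block, and the loss of any library but oxidized C left 0 of the 33 mitosis genes called. Leaving out 1 library gave 0 to 1 called mitosis genes and 3 to 1204 of all genes. It gave 0 to 5 other mitotic genes, 0 to 3 genes of G1 and S and 0 to 3 brakes. Each count was highest without oxidized C. On leaving out 1 library, the median of the mitosis genes ran from -0.19 (without oxidized A) to -0.0078 (without reduced B). In the same fits the median of all tested genes was 0.074 and 0.079. With median-ratio scaling the median of the mitosis genes was -0.22, where that of all tested genes was -0.00055. With quantile normalization these were -0.24 and -0.011. Of all genes 97 were called (63 higher, 34 lower), against 58 higher and 50 lower with median-ratio scaling, 4 with no filter, 4 with the replicate block, 11 without oxidized A and B and 1685 with the block on populations A and B alone. With no trend, no filter, the replicate block, or oxidized A and B left out, 0 genes of G1 and S were called, since Ccnd2 lost its call, as it did on leaving out any 1 library but oxidized C. The block changed no other call among the listed genes. On populations A and B alone it called 7 other mitotic genes (6.86%), 4 genes of G1 and S (13.3%) and 3 brakes (18.8%), against 13.8% of all tested genes. Calls in that fit rest mainly on spread pooled over genes, not on a gene's own. The median of the mitosis genes was -0.34 without oxidized A and B, a fit that mixes the gate with population C. It was -0.18 within A with quantile normalization and -0.42 within B with median-ratio scaling. Where no construction explains a change, the cause was not tested.

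Values that changed sign were, with median-ratio scaling, -0.025 for Plk1, -0.047 for Bub1b, -0.028 for Aurkb and -0.082 for Birc5; with quantile normalization, -0.00051 for Plk1, -0.029 for Bub1b, -0.011 for Aurkb and -0.077 for Birc5; without oxidized A and B, -0.18 for Ccna2, -0.22 for Cdk1, -0.12 for Cdc25c, -0.34 for Plk1, -0.086 for Bub1b, -0.42 for Ttk, -0.34 for Aurkb, -0.12 for Birc5 and -0.37 for Incenp; and with the block on A and B alone, 0.071 for Kif20a and 0.16 for Prc1. Leaving out 1 library changed the sign within these ranges: Cdk1 -0.041 to 0.33, Plk1 -0.038 to 0.27, Hmmr -0.23 to 0.014, Cenpe -0.23 to 0.0034, Cenpf -0.12 to 0.040, Nuf2 -0.14 to 0.12, Ndc80 -0.14 to 0.051, Bub1b -0.056 to 0.11, Mad2l1 -0.40 to 0.022, Aurkb -0.055 to 0.27, Birc5 -0.074 to 0.074, Incenp -0.027 to 0.41, Kif20a -0.11 to 0.16, Prc1 -0.21 to 0.26. The effect of the lower depth in population C was not tested.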
